A study of Mus musculus with 6 samples.

Results

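Fatty acid elongases and desaturases of the liver were examined in mice that were given esculetin, a coumarin compound, or its vehicle around a lipid-rich meal. The genes were Fads1, Fads2, Fads3, Fads6, Scd2, Elovl1, Elovl2, Elovl3 and Elovl5. They were taken by name from a list in which the relatives Scd1 and Elovl6 were not included, and all 9 were found among the 55357 genes of the count table. All 6 libraries came from livers of wild-type C57BL6/J male mice aged 8 to 9 weeks. Both groups were gavaged daily for 7 days and ate a control diet with 10% of kcal from fat for 4 days, followed by a high-fat diet with 60% of kcal from fat for 3 days. The vehicle group was given 2.5% Tween-80 alone and the esculetin group was given esculetin in it. The esculetin dose is 180 mg/kg/d in the sample titles, the treatment protocol and the column names of the count table but 90 mg/kg/d in the treatment field, so the group is named here without a dose. Each group had 3 libraries. Each library pooled the livers of 2 mice, so differences between single mice cannot be seen.

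Elongases (the Elovl genes) add carbon units to fatty acyl-CoA chains at the endoplasmic reticulum, and desaturases (the Fads and Scd genes) place double bonds in them. In liver, Fads2 and Fads1 with Elovl5 and Elovl2 turn dietary linoleic and alpha-linolenic acid into arachidonic acid and docosahexaenoic acid. Elovl1 and Elovl3 extend saturated and monounsaturated chains to very long chains, and Scd enzymes make oleic and palmitoleic acid. Several of these genes are known targets of SREBP-1c, of the liver X receptors and of PPAR alpha.

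Between 27957713 and 34920922 counts were deposited for each library, and each esculetin library was deeper than each vehicle library. Values are given as CPM, the count of a gene divided by the TMM-adjusted library size and scaled to a common total, and 3 counts correspond to between 0.0865 and 0.109 CPM. Hepatocyte markers were abundant in both groups, with a sum over 6 genes of 88865 to 92107 CPM with vehicle and 86153 to 94281 CPM with esculetin. The summed level of 6 Kupffer cell markers lay between 289 and 388 CPM with vehicle and between 299 and 312 CPM with esculetin. That of 5 sinusoidal endothelial markers lay between 143 and 179 CPM and between 154 and 177 CPM, and that of 5 stellate cell markers between 302 and 349 CPM and between 276 and 366 CPM. The sum of 5 cholangiocyte markers was 39.5 to 80.4 CPM with vehicle and 30.3 to 45.7 CPM with esculetin. Most of this sum came from Spp1, which was lower with esculetin (log2 fold change -0.75). The other genes of the list, Krt19, Krt7, Epcam and Sox9, had log2 fold changes above zero (0.24, 0.63, 0.057 and 0.34). Erythroid markers (3 genes) summed to 123 to 148 CPM and 110 to 166 CPM, and lymphocyte markers (4 genes) to 1.68 to 2.21 CPM and 1.82 to 3.73 CPM. Of 5 adipocyte markers, Lep and Retn had no count in any library, and the sum over the list was 0 to 0.613 CPM with vehicle and 0.894 to 1.19 CPM with esculetin. In 4 of the lists 1 gene was called by the thresholds given below, namely Des (stellate cell), Spp1 (cholangiocyte), Cd79a (lymphocyte) and Cfd (adipocyte), all named after their values were seen. Only the adipocyte sums did not overlap between the groups. They came almost entirely from Cfd, with 0 to 0.613 CPM with vehicle and 0.692 to 1.12 CPM with esculetin, which are low levels. Adipoq and Plin1 reached at most 0.119 and 0.144 CPM in any library. The part of these sums in the results on Fads3 and Elovl3 was not tested. The share of counts from mitochondrial genes did not overlap either, with 7.31% to 7.62% in the vehicle group and 6.87% to 7.26% in the esculetin group, and its part was not tested. In bulk liver, fewer cells of a type and less RNA per cell cannot be told apart.

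On GRCm39, 5 of the 9 genes are on chromosome 19, where Fads3, Fads2 and Fads1 form a cluster. Fads3 and Fads2 face each other with their 3′ ends, and 201 bases separate the gene bodies. A further 80963 bases separate the bodies of Fads2 and Fads1. Scd2 and Elovl3 lie farther along the same chromosome. With all 6 libraries, Fads3 is the member whose level differed most between the groups. Without vehicle replicate 1, Elovl3 differed slightly more (log2 fold change -0.66, beside -0.64 for Fads3). Fads2 is the nearest neighbour of Fads3 and did not pass the thresholds, so the promoters of Fads3 and Fads2 are shown. They run from 250 bases before to 50 bases after the annotated start, as RefSeq gives them on GRCm38.p6 (Fads3, plus strand, chr19:10041298-10041597; Fads2, minus strand, chr19:10101454-10101753). Capitals mark the matches to any of the motifs searched.
Fads3: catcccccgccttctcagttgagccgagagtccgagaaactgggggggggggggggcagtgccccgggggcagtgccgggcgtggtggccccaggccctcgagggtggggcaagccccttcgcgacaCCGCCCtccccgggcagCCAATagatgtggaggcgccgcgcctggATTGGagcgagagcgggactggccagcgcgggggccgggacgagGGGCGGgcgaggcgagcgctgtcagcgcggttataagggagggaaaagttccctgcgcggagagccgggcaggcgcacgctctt
Fads2: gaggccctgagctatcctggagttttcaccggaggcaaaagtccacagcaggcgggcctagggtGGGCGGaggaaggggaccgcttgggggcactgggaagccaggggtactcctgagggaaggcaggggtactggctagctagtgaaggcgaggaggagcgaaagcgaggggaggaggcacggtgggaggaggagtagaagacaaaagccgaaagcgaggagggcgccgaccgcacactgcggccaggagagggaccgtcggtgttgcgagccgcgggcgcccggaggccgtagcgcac

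Motifs were searched on both strands as the CCAAT box (CCAAT), the nuclear receptor element AGGTCA, the GC box (GGGCGG), the E-box (CACGTG), the TATA box (TATAAA) and the sterol element (TCACNCCAC). Counted from the start base as 0, the Fads3 promoter held a CCAAT box at -106 to -102 and a reverse one at -78 to -74, with GC boxes at -123 to -118 and -34 to -29. The Fads2 promoter held a single GC box at -186 to -181. Among the 32851 promoters of the same table, 37.4% held a CCAAT box and 35.7% a GC box. The table held 8 promoters of 6 of the 9 genes (all but Fads1, Elovl3 and Scd2), with a pair each for Elovl1 and Elovl2. A CCAAT box was found in 3 of these 8 promoters (Fads3, Elovl5 and 1 of Elovl1), a GC box in 6 and the sterol element in 0, the latter being present in 1.24% of all promoters. AGGTCA was found in 2 of the 8 promoters and in 16.3% of all promoters, CACGTG in 1 and in 7.15%, and TATAAA in 0 and in 13.6%. These are matches of letters and show no binding.

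To compare levels between genes, CPM was divided by the exon length in kilobases. Elovl2, which elongates long polyunsaturated chains, had the highest level of the 9 genes, with a mean of 239 CPM per kilobase over the 6 libraries (range 191 to 298). Fads2, which carries out the first desaturation of the polyunsaturated pathway, followed with 139 CPM per kilobase (range 114 to 184). Fads1, whose desaturation step makes arachidonic acid, had 96.3 CPM per kilobase (range 80.7 to 122), and Elovl5, which elongates the product of Fads2, had 62.9 (range 51.7 to 81.3). In each of the 6 libraries the order among these 4 genes was the same, although the ranges of Fads2 and Fads1, and of Fads1 and Elovl5, overlapped between libraries.

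Elovl3 and Fads6 followed at 26.2 and 23.9 CPM per kilobase, with Elovl3 above Fads6 in 3 of 3 vehicle libraries and in 1 of 3 esculetin libraries, so that no single order held for both groups. Elovl1 had 4.37 CPM per kilobase and Fads3 3.23, and Elovl1 was above Fads3 in 5 of 6 libraries with overlapping ranges. Scd2, the stearoyl-CoA desaturase that is prominent in brain, was lowest at 0.681 CPM per kilobase. Together Elovl2, Elovl5, Fads1 and Fads2 made up 89.3% ± 1.02 of the summed level per kilobase of the 9 genes in the vehicle group and 91.1% ± 0.829 in the esculetin group (SD over 3 libraries).

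**Figure D1:**
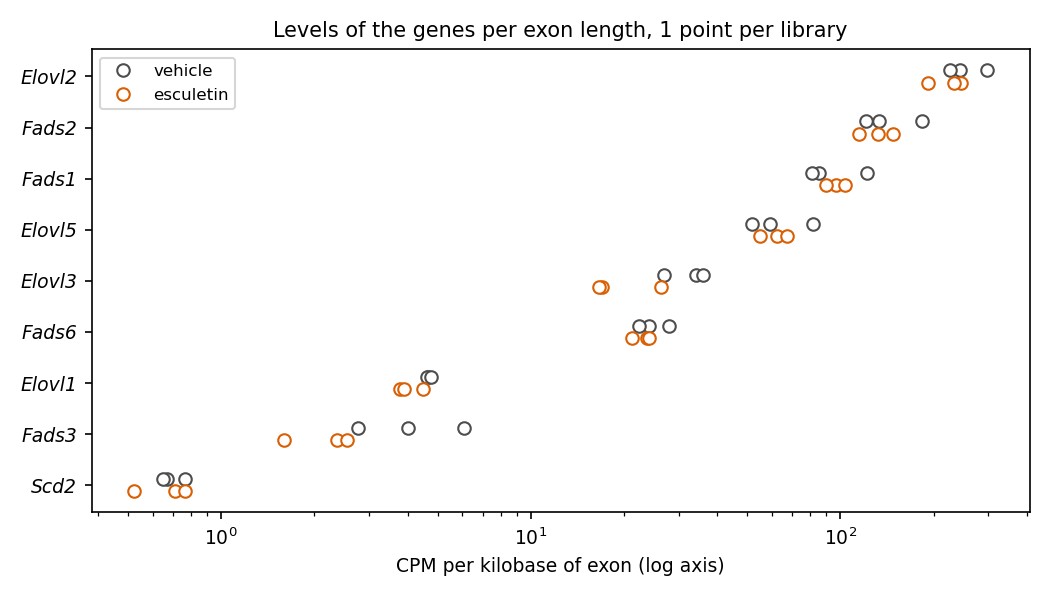
Level of each gene per exon length (CPM per kilobase, log axis), with 1 point for each vehicle or esculetin library. The genes of the polyunsaturated pathway, Elovl2, Fads2, Fads1 and Elovl5, lie above the others, and the vehicle and esculetin points separate for Elovl3, Elovl1 and Fads3.

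The comparison of esculetin with vehicle asks which hepatic genes the compound alters under the lipid-rich meal. A gene was called when its unadjusted p-value was under 0.05 and its fold change over 1.5, the thresholds in the study's methods, and p-values adjusted over all genes are given beside it (quasi-likelihood test in edgeR, adjusted by Benjamini-Hochberg). Fads3 and Elovl3 were lower with esculetin by these thresholds, and the remaining 7 genes were not called. Of all 14433 genes tested, 3.13% were called, 1.76% lower and 1.37% higher. Of the 9 genes, 0 had an adjusted p-value under 0.05, which 0.0416% of all genes reached, and 2 had an unadjusted p-value under 0.05, which 11.9% of all genes reached (5.32% lower and 6.53% higher). In DESeq2 the adjusted p-values of Fads3 and Elovl3, but of no other of the 9 genes, were under 0.05. Of all genes, 193 had an adjusted p-value under 0.05 in DESeq2, beside 6 in edgeR. The fold changes of 8 of the 9 genes were below zero on the log2 scale, with a median of -0.15, where 51.5% of all genes tested were below zero with a median of -0.0080. Without vehicle replicate 1, 6 of the 9 genes were below zero and their median was -0.073. The groups did not overlap in 3 of the 9 genes, Fads3, Elovl3 and Elovl1, all lower with esculetin, beside 17.4% of all genes (8.24% lower and 9.2% higher). With 3 libraries against 3, an exact permutation test of a single gene cannot give a p-value below 0.1.

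Fads3 encodes a desaturase of the Fads cluster that is known to act on sphingoid bases. It lies on chromosome 19 from 10018253 to 10037928 on the plus strand of GRCm39 and carries the identifier ENSMUSG00000024664. Its level was 27.6, 18.2 and 12.5 CPM in vehicle replicates 1, 2 and 3, and 7.24, 10.8 and 11.6 CPM in esculetin replicates 1, 2 and 3. All vehicle libraries were above all esculetin libraries, but vehicle replicate 1 stood well above the other vehicle libraries, and vehicle replicate 3 and esculetin replicate 3 were close together. The mean fell from 19.4 ± 7.60 to 9.85 ± 2.29 CPM (mean ± SD, n = 3 libraries). The log2 fold change was -0.98 with a standard error of 0.27 and a 95% confidence interval of -1.58 to -0.38 (edgeR, unadjusted p = 0.00447, adjusted p = 0.225), so the vehicle level was 1.97 times the esculetin level.

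The size of this difference moved with vehicle replicate 1. Without that library the log2 fold change of Fads3 was -0.64 (unadjusted p = 0.0173, adjusted p = 0.360, edgeR), a vehicle level of 1.56 times the esculetin level, and the gene remained past both thresholds. Over all 13 alternatives, which included each library left out, the log2 fold change of Fads3 lay between -1.21 and -0.64. The gene was called in 13 of them, and the adjusted p-value lay between 1.39e-06 and 0.511. The 1.39e-06 came from the edgeR fit without the low-count filter, in which 477 genes had an adjusted p-value under 0.05, beside 6 with it. The adjusted p-value was 0.00743 with DESeq2 and 0.252 with limma-voom. Relative to its neighbour Fads2, Fads3 had 2.30, 2.09 and 1.59 counts per 100 Fads2 counts in the vehicle libraries and 0.969, 1.11 and 1.34 in the esculetin libraries. These ratios did not overlap either, with means of 1.99 ± 0.367 and 1.14 ± 0.187 (SD, n = 3). In the annotation used here, 10.0% and 13.5% of the Fads3 exon bases are shared with the antisense transcripts Gm59114 and Gm29917, which are not rows of the count table, and reads of either strand cannot be told apart with the library kit named in the labels.

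Elovl3 encodes an elongase of saturated and monounsaturated very long chains that is known from brown fat, skin and liver, and its hepatic mRNA is known to vary with time of day and sex. It lies on chromosome 19 from 46119917 to 46124133 on the plus strand of GRCm39, with the identifier ENSMUSG00000038754. Its level was 77.6, 81.7 and 60.9 CPM in vehicle replicates 1, 2 and 3, and 38.5, 59.8 and 37.5 CPM in esculetin replicates 1, 2 and 3. The groups did not overlap, although vehicle replicate 3 and esculetin replicate 2 were nearly level. The mean fell from 73.4 ± 11.0 to 45.3 ± 12.6 CPM (mean ± SD, n = 3), a log2 fold change of -0.70 (SE 0.18, 95% confidence interval -1.10 to -0.30, unadjusted p = 0.00308, adjusted p = 0.203, edgeR). The vehicle level was 1.62 times the esculetin level.

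Without vehicle replicate 1 the log2 fold change of Elovl3 was -0.66, close to that with all libraries (unadjusted p = 0.0103, edgeR). Elovl3 was called in 12 of 13 alternatives. Without esculetin replicate 3 its log2 fold change was -0.58, just short of the fold threshold of 0.585 on the log2 scale, with an unadjusted p of 0.0131 (edgeR). Over the alternatives the log2 fold change lay between -0.95 and -0.58. The adjusted p-value lay between 2.78e-06, from the edgeR fit without the low-count filter, and 0.537. It was 0.00750 with DESeq2 and 0.181 with limma-voom. Of the exon bases of Elovl3, 18.3% are shared with Pitx3 on the opposite strand. Pitx3 itself had 2 to 30 counts per library, beside 1239 to 2661 counts of Elovl3.

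**Figure D2:**
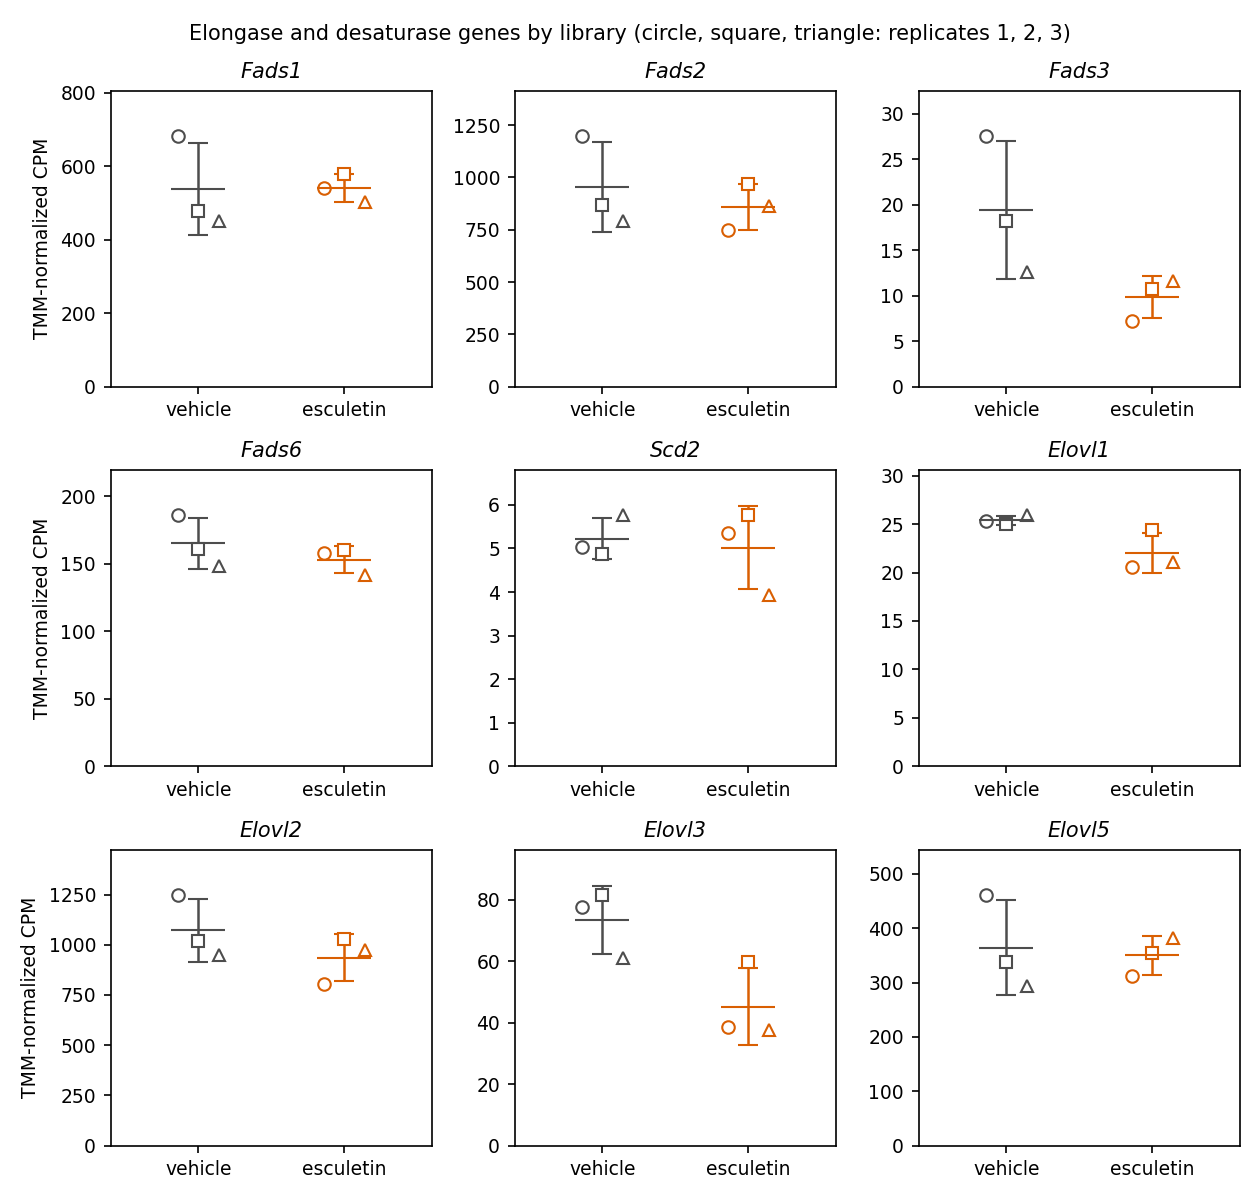
TMM-normalized CPM of the 9 genes in each library (axes start at 0; circles, squares and triangles are replicates 1, 2 and 3; the bar and whiskers are the mean and SD of 3 libraries). Fads3, Elovl3 and Elovl1 show no overlap between the groups, and the circle of vehicle replicate 1 is the highest point in Fads1, Fads2, Fads3, Fads6, Elovl2 and Elovl5.

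Elovl1, which makes the very long saturated chains used in ceramides, differed little between the groups. It had 25.3, 25.0 and 25.9 CPM in the vehicle libraries and 20.6, 24.4 and 21.1 CPM in the esculetin libraries. The vehicle libraries lay within 1.04-fold of each other and all were above the esculetin libraries. The log2 fold change was -0.21 (95% confidence interval -0.42 to 0.0022, unadjusted p = 0.0520, adjusted p = 0.425, edgeR), so the gene missed both thresholds. In 3 of the 13 alternatives its unadjusted p-value was under 0.05 (lowest 0.0181, edgeR), and it was called in 0 of them.

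The genes of the polyunsaturated pathway were not called. Fads2 had 1199, 870 and 791 CPM in the vehicle libraries and 747, 967 and 862 CPM in the esculetin libraries. Fads1 had 683, 479 and 452 CPM with vehicle and 542, 579 and 502 CPM with esculetin. In both genes vehicle replicate 1 was the highest of the 6 libraries. The remaining vehicle libraries lay within the esculetin range for Fads2 and below all esculetin libraries for Fads1. The log2 fold changes were -0.15 for Fads2 (95% confidence interval -0.49 to 0.19) and 0.0077 for Fads1 (-0.32 to 0.33).

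Elovl5 had 462, 337 and 293 CPM with vehicle and 313, 354 and 383 CPM with esculetin. Elovl2 had 1249, 1021 and 950 CPM with vehicle and 803, 1031 and 975 CPM with esculetin. Again vehicle replicate 1 was the highest library in both genes and the groups overlapped. The log2 fold changes were -0.057 for Elovl5 (95% confidence interval -0.40 to 0.28) and -0.20 for Elovl2 (-0.48 to 0.082).

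Fads6, a desaturase-like gene of the liver with little known function, had 186, 160 and 149 CPM with vehicle and 158, 160 and 141 CPM with esculetin, a log2 fold change of -0.11 (95% confidence interval -0.33 to 0.11). Scd2 had 5.04, 4.88 and 5.76 CPM with vehicle and 5.35, 5.77 and 3.94 CPM with esculetin, a log2 fold change of -0.057 (-0.46 to 0.35). Both genes overlapped between the groups. Reads of Scd2 could be affected by its relative Scd1, which was far more abundant, since the handling of reads that map to several genes is not stated. For all 7 genes that were not called, the 95% confidence interval excluded a change of 1.5-fold or more in either direction.

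**Figure D3:**
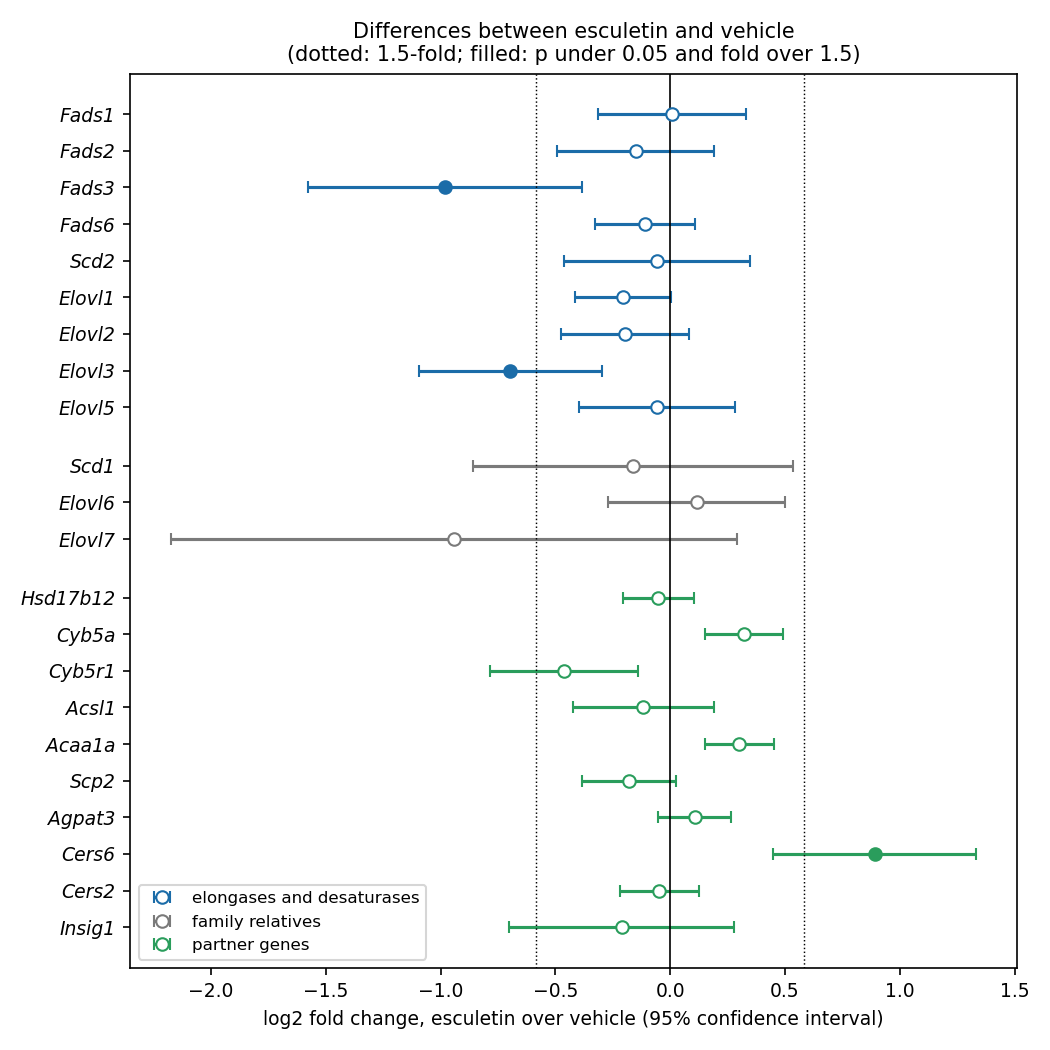
Log2 fold changes of esculetin over vehicle with 95% confidence intervals for the 9 genes, the 3 relatives that could be tested and 10 named partner genes (dotted lines mark a 1.5-fold change, filled points passed both thresholds). Among the 9 genes, Fads3 and Elovl3 are filled on the lower side, and the intervals of the other members lie between the dotted lines.

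Vehicle replicate 1 was the highest of the 6 libraries in 6 of the 9 genes (66.7%), namely Fads1, Fads2, Fads3, Fads6, Elovl2 and Elovl5, while it was the highest in 17.0% of all genes tested. The share of counts from mitochondrial genes was 7.62% in this library and 7.42% and 7.31% in the other vehicle libraries. Without it, the log2 fold changes were 0.22 for Fads1 (unadjusted p = 0.0411, adjusted p = 0.458, edgeR), 0.048 for Fads2 and 0.15 for Elovl5 (unadjusted p = 0.684 and 0.199, edgeR). Those of Elovl2 and Fads6 moved to -0.073 and -0.015, and that of Fads3 moved most, from -0.98 to -0.64. Those of Elovl3 and Elovl1 were -0.66 and -0.21, close to their values with all libraries. The signs of Fads2 and Elovl5 changed without this library, that of Elovl5 also without esculetin replicate 1, whereas Fads3 and Elovl3 were lower and called with and without it.

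**Figure D4:**
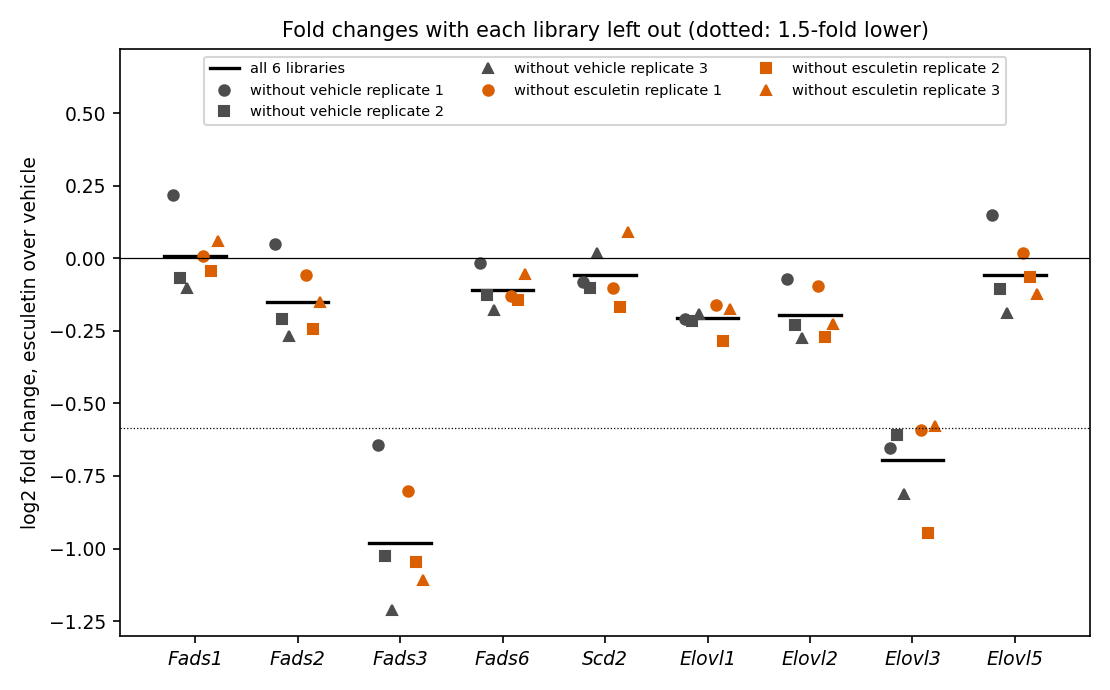
Log2 fold changes of the 9 genes with all 6 libraries (black bars) and with each library left out (points; grey for vehicle and orange for esculetin libraries; the dotted line marks a 1.5-fold lower level). Fads3 and Elovl3 stay below the other genes in every fit, and the points of Fads1, Fads2 and Elovl5 without vehicle replicate 1 lie above zero.

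The family relatives outside the list gave no call. Scd1, the main hepatic stearoyl-CoA desaturase, had 5478, 2850 and 2007 CPM with vehicle and 2279, 3425 and 3533 CPM with esculetin, and Elovl6, which elongates palmitic acid, had 154, 104 and 108 CPM with vehicle and 142, 151 and 103 CPM with esculetin. Vehicle replicate 1 was again the highest library in both genes. Their log2 fold changes were -0.16 (95% confidence interval -0.86 to 0.54) and 0.12 (-0.27 to 0.50), and without that library they were 0.34 and 0.32 (unadjusted p = 0.121 and 0.0593, edgeR). Elovl7 was low, with 0.124 to 0.583 CPM per library and a log2 fold change of -0.94 (unadjusted p = 0.119, edgeR). Scd3, Scd4 and Elovl4 had 7, 1 and 0 counts over all 6 libraries and were not tested.

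The enzymes that work with elongases and desaturases were described from 7 lists with 50 genes, of which 42 were tested. Of these 42 genes, 1 was called (2.38%, beside 3.13% of all genes), 5 had an unadjusted p-value under 0.05 (11.9%, equal to the share of all genes) and 0 an adjusted one, and the median log2 fold change was 0.0099. In 8 of the 42 genes the groups did not overlap, beside the 17.4% of all genes. In DESeq2, Cers6, Cyb5a and Acaa1a were the named partner genes with an adjusted p-value under 0.05 (0.00166, 0.0177 and 0.0280), beside 193 of all genes. Without vehicle replicate 1, 3 of the partner genes were called, beside 495 of all genes in that fit.

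The other enzymes of the elongation cycle gave no call among 6 tested genes, with log2 fold changes from -0.16 to 0.17. Hsd17b12, which reduces the ketoacyl-CoA made by the elongase, was the most abundant of these per kilobase, with 170, 183 and 176 CPM in the vehicle libraries and 172, 169 and 170 CPM in the esculetin libraries. Its log2 fold change was -0.052 (95% confidence interval -0.21 to 0.10).

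The electron supply of desaturases comes from cytochrome b5 and its reductases, and 2 of 5 tested genes had an unadjusted p-value under 0.05 without reaching the fold threshold. Cyb5a, the microsomal cytochrome b5, had 727, 704 and 715 CPM with vehicle and 943, 839 and 899 CPM with esculetin. All esculetin libraries were above the vehicle libraries, and the log2 fold change was 0.32 (SE 0.077, unadjusted p = 0.00194, adjusted p = 0.172, edgeR). Cyb5r1, a cytochrome b5 reductase, had 5.62, 5.71 and 6.27 CPM with vehicle and 4.23, 4.30 and 4.24 CPM with esculetin, a log2 fold change of -0.46 (SE 0.14, unadjusted p = 0.00982, adjusted p = 0.263, edgeR). The groups did not overlap in either gene.

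Ceramide synthases join very long chains, including those made by Elovl1 and Elovl3, to sphingoid bases. Cers6, which uses shorter chains than Cers2, was the single called partner gene. It had 10.1, 8.19 and 13.9 CPM with vehicle and 21.6, 22.3 and 15.6 CPM with esculetin, so that all esculetin libraries were above the vehicle libraries. Its log2 fold change was 0.89 (SE 0.20, 95% confidence interval 0.45 to 1.33, unadjusted p = 0.00123, adjusted p = 0.152, edgeR). Cers6 was called in 13 of 13 alternatives. The adjusted p-values lay between 1.18e-06, from the edgeR fit without the low-count filter, and 0.473. Cers2, the most abundant gene of this list per kilobase and known for very long chains, had 318, 322 and 297 CPM with vehicle and 284, 313 and 310 CPM with esculetin, a log2 fold change of -0.047 (95% confidence interval -0.22 to 0.12).

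Peroxisomes shorten the last intermediate on the way to docosahexaenoic acid, and of 8 tested genes 2 had an unadjusted p-value under 0.05, both higher, while 0 were called. Acaa1a, a peroxisomal thiolase, had 111, 111 and 109 CPM with vehicle and 137, 137 and 133 CPM with esculetin. Its log2 fold change was 0.30 (SE 0.067, unadjusted p = 0.00125, adjusted p = 0.152, edgeR). The esculetin libraries were above the vehicle libraries without overlap. Scp2, the most abundant gene of the list per kilobase, had 5514, 5773 and 6219 CPM with vehicle and 4722, 5115 and 5619 CPM with esculetin, a log2 fold change of -0.18 (95% confidence interval -0.39 to 0.026). Without vehicle replicate 1, Acaa1b and Abcd2 were also called, with log2 fold changes of 0.83 and 0.81 (unadjusted p = 0.000486 and 0.000818, edgeR), and both genes were picked out after their values were seen. Acaa1a and Acaa1b are close paralogs, so the split of reads between them is uncertain.

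The remaining lists gave no gene with an unadjusted p-value under 0.05. Among 4 tested acyl-CoA synthetases, Acsl1 was the most abundant per kilobase, with 878, 795 and 819 CPM with vehicle and 588, 810 and 899 CPM with esculetin. Among 5 tested acyltransferases that place polyunsaturated chains in phospholipids, Agpat3 was the most abundant, with 133, 130 and 130 CPM with vehicle and 134, 147 and 142 CPM with esculetin. Their log2 fold changes were -0.12 (95% confidence interval -0.43 to 0.19) and 0.11 (-0.052 to 0.27).

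The 9 regulators tested gave no call and a median log2 fold change of -0.045, in a range from -0.22 to 0.11. Insig1, which holds SREBP precursors in the endoplasmic reticulum and is itself an SREBP target, was the most abundant of them per kilobase. It had 575, 433 and 294 CPM with vehicle and 385, 443 and 296 CPM with esculetin, and vehicle replicate 1 was its highest library, which held for 1 of the 9 regulators. Its log2 fold change was -0.21 (95% confidence interval -0.70 to 0.28).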

How the data were processed

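Liver RNA was sequenced by the authors as paired-end reads, aligned to GRCm39 with HISAT2 2.2.1 and summarised with featureCounts. The deposited values are raw counts per gene. Which annotation release and strand setting were used, and how multi-mapped reads were handled, is not given in the sources used here. Groups and replicate numbers come from the sample titles. Count columns were tied to them by replicate number and by the dose in the column name. The vehicle columns name only the high-fat diet, which both groups ate, and were taken as vehicle because they carry no dose.

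Exon lengths, symbols and positions were taken from GENCODE M39, which held 54749 of the 55357 identifiers. Genes kept by filterByExpr (14433) were TMM-normalized and compared with edgeR 4.0.16 (R 4.3.3, quasi-likelihood, group as the only term), with Benjamini-Hochberg adjustment over all of them. The fit was tested on simulated data. Other settings tried were limma-voom (limma 3.58.1), DESeq2 1.42.0, other size factors or filters, a replicate block, other fold thresholds and fits without 1 library. Chi-square distances between replicates (24.2 per gene or more) were far above sampling noise, so all libraries were kept as separate samples. P-values measure the spread between pools of 2 mice.

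The members and lists were chosen with earlier results of these data known. Genes named were the members, their relatives and, from each partner list, those with an unadjusted p-value under 0.05 and the most abundant per kilobase. Genes named for their values outside this rule are marked as such. Of the genes this rule names, 1 is not reported here. Protein sequences were not analysed here.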

Additional observations from a re-analysis of the deposited data

How the results depend on the processing

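Direction and call were the same for Fads3, Elovl3 and Cers6 with both other tools, both other scalings, both other filters (none, or 10 counts in every library) and the replicate block. Among elongases and desaturases 2 were called, and 0 with a fold change over 2. With an adjusted p-value under 0.05 there were 0, and 2 with DESeq2 and 2 without the filter (Fads3 and Elovl3 in both). Of all genes, 452 were called, 776 without the filter, 1711 without a fold threshold and 217 with a fold change over 2. Those with an adjusted p-value under 0.05 were 6, 193 with DESeq2, 477 without the filter and 15 with the replicate block. Of the partner genes 1 was called, 5 without a fold threshold and 0 with a fold change over 2. With total counts the log2 fold change of Fads1 was -0.018. When 1 library was left out, the members called were between 1 and 2 (1 without esculetin replicate 3), the genes called between 411 and 588, the partner genes called between 1 and 3, and the genes with an adjusted p-value under 0.05 between 2 and 45, the highest number being without vehicle replicate 1 and the lowest without vehicle replicate 2, with 15 without vehicle replicate 3. The partner genes called were 3 without vehicle replicate 1 and 2 without esculetin replicate 1, where Lpcat2 (log2 fold change -0.78, named after its value was seen) joined Cers6. The median log2 fold change of the members lay between -0.24 and -0.073 in these fits. Signs changed in some of them for Fads1 (-0.10 to 0.22), Fads2 (-0.27 to 0.048), Elovl5 (-0.19 to 0.15), Scd2 (-0.17 to 0.092), Scd1 (-0.43 to 0.34), Acsl1 (-0.25 to 0.042) and Insig1 (-0.43 to 0.044), and Elovl7 was called without esculetin replicate 3 (-1.72). For these changes the cause was not tested.

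Libraries with the same replicate number did not deviate together from their groups (correlations -0.069, -0.011 and 0.0027), and no pairing was assumed. In the fit with a replicate block 399 genes were called, and the members called were again 2, with 0 adjusted p-values under 0.05. The median log2 fold change of the members was -0.13 with the block, and 1 partner gene was called. Genes with few counts, such as Elovl7, Scd3 and Scd4, are limited by depth.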
